A study of Caenorhabditis elegans with 8 samples.

Results

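The ribosome budget of L4 larvae, the way translating ribosomes were spread over the coding sequences (CDS) of the worm at its last larval stage, was described from 3 of the 8 ribosome profiling libraries of the series, L4 libraries 5, 6 and 7. The value per CDS was the deposited RPKM, the reads of ribosome-protected fragments per 1000 nucleotides of the feature and per 1000000 reads of the library, and a share is the RPKM of a CDS or family as a percentage of the RPKM summed over all 20505 CDS. The 4 libraries labelled L4 came from whole worms of the wild-type strain N2 at larval stage 4, hatched from egg preparations and grown on peptone-rich NGM with NA22 bacteria, with no drug or mutation named, and the gel slices excised for them spanned 25 to 30, 28 to 30, 28 to 35 and 26 to 34 nucleotides. The other 4 libraries came from whole N2 worms labelled young adult, grown in the same way, with monosomes purified by sucrose gradient or gel filtration column and libraries built by the laboratory's protocol or the ARTseq kit.

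The 3 libraries were chosen by their measured profile: the other library labelled L4, library 8, was left out because its RPKM values differed. No label links a library number to its gel slice or says whether the L4 libraries came from separate cultures, and so the spread between them (SD, n = 3 throughout) may be technical. Stage marker genes were read in every library. The 5 cuticle collagens used as markers of larval and L4 cuticle synthesis summed to 7760, 7658 and 7955 RPKM in L4 libraries 5, 6 and 7. They summed to 28.1 RPKM in library 8 and to between 4.91 and 7.50 RPKM in the young adults. The 6 vitellogenins, yolk proteins of the adult intestine, summed to 40.5, 43.1 and 47.6 RPKM in libraries 5, 6 and 7, against 16984 RPKM in library 8 and 17410 to 18200 RPKM in the young adults. Libraries 5 to 7 thus held the cuticle collagens high and the yolk proteins low. The library labelled L4 number 8 held these collagens at a low level and yolk proteins near the young-adult level. Since the libraries were chosen by these same values, the markers describe them and are no test of the label. Read totals were 26078844, 21814060 and 4999364 for libraries 5, 6 and 7, so library 7 was the shallowest of the 3.

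A ribosome shields a short stretch of mRNA while it translates, and the footprints of a CDS count the ribosomes on its transcripts at lysis, while footprints per length give their density. In growing cells a large part of this capacity is spent on the ribosome itself, because each ribosome needs a full set of ribosomal proteins. In C. elegans the epidermis also builds a new cuticle, made largely of short collagens, before each molt, and the L4 stage ends with the molt that gives the adult cuticle. These libraries were made from whole worms, so more cells of a type, more mRNA per cell and more ribosomes per mRNA cannot be told apart.

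The budget was spread over many CDS, with a steep head. Of the 20505 CDS, 18448 had a value above 0 in at least 1 of the 3 libraries and 12698 had a mean of at least 1 RPKM. The single most occupied CDS held 1.23% of the summed RPKM, the 10 leading CDS held 6.92%, the 50 leading CDS held 20.5% and the 200 leading CDS held 46.0%. It took 244 CDS to reach 50% of the sum and 2966 CDS to reach 90%. The curve was alike in each library: 247 CDS held 50% in library 5, 249 in library 6 and 231 in library 7. Library 7, the shallowest, was the most concentrated of the 3, and its 50 leading CDS held 22.0%, against 20.1% in library 5 and 20.3% in library 6. Library 8 needed 162 CDS for 50% and the young-adult libraries 145 to 187, fewer than these 3. At the very head this order did not hold against the young adults. The 10 leading CDS held 6.69%, 6.86% and 7.52% in L4 libraries 5, 6 and 7, against 6.15% to 7.84% in the young adults. In library 8 they held 8.33%, more than in these 3.

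**Figure D1:**
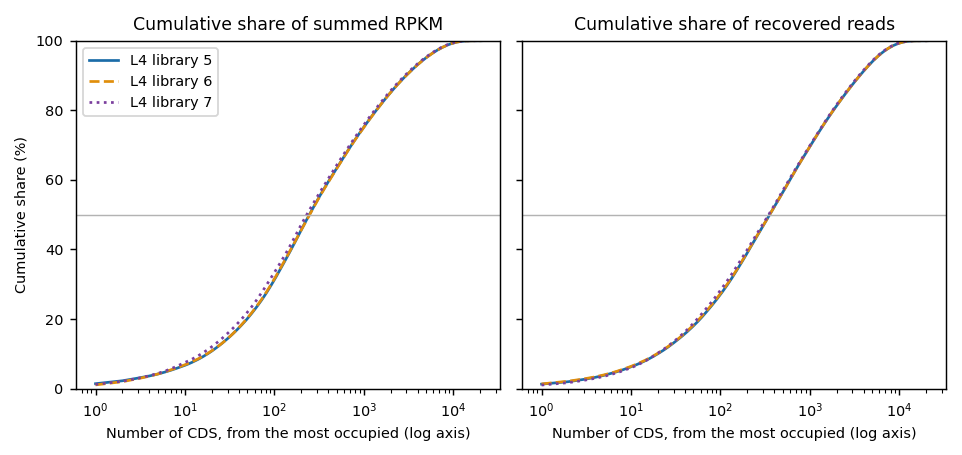
Cumulative share of the 3 L4 libraries (y axis, %) against the number of CDS counted from the most occupied down (x axis, log scale), for summed RPKM on the left and for recovered reads on the right; the grey line marks 50%. The 3 curves lie almost on each other and cross 50% at 231 to 249 CDS by RPKM and at 347 to 356 CDS by reads.

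The 30 leading CDS held 14.6% of the summed RPKM. Ribosomal proteins supplied 10 of them with 4.24% of the sum, and cuticle collagens 5 with 1.91%. A further 7 entered none of the gene families compiled here and held 4.27%. Families were assigned by symbol, so genes known by a sequence name alone, Y82E9BR.3 among them, stayed unlisted whatever they encode. Each of the 30 rested on at least 7820 reads in every library, so counting error was small for all of them. The last of them, rpl-10L, averaged 3632 RPKM, and the next CDS, rpl-12, averaged 3567 RPKM.

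Y82E9BR.3 led the ranking in each of the 3 libraries, with 15202, 11410.4 and 13110.4 RPKM in libraries 5, 6 and 7 (13241 ± 1899), the order in which values of single libraries are given from here on. Its lowest value lay above the highest value of every other CDS, so its place did not overlap with the next. The fatty acid and retinol binding protein gene far-2 had 8437, 9973 and 9391 RPKM (9267 ± 776), and eef-1A.1, which encodes the elongation factor that brings aminoacyl-tRNA to the ribosome, had 9035, 9454 and 7140.5 RPKM (8543 ± 1233). The libraries of far-2 and eef-1A.1 overlapped, and their order turned between library 5, where eef-1A.1 was ahead, and libraries 6 and 7, where far-2 was ahead. dbd-2 followed on the mean with 5695, 6557 and 9756 RPKM, at place 7 in library 5, place 6 in library 6 and place 2 in library 7.

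Below them came rps-29, a small-subunit ribosomal protein gene, with 5433, 7274 and 7860.3 RPKM, and C17F4.7 with 6144, 7118 and 7230 RPKM. dct-16 had 6465, 5061 and 7521 RPKM. These 3 could not be separated by rank, since their libraries overlapped in every pairing. Among the rest of the 30 were the muscle troponin C gene pat-10 (5164 ± 1167 RPKM), the mitochondrial ADP/ATP carrier ant-1.1 (4982 ± 269 RPKM), the protein disulfide isomerase pdi-2, a subunit of the enzyme that hydroxylates collagen prolines (4761 ± 387 RPKM), and the nucleoside diphosphate kinase ndk-1 (4431 ± 327 RPKM). far-1, of the same family as far-2, averaged 4710.1 ± 1171 RPKM. The coefficient of variation (CV, SD over mean) of the 30 ranged from 5.39% for ant-1.1 to 30.4% for rpl-10L, with a median of 14.4%.

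**Figure D2:**
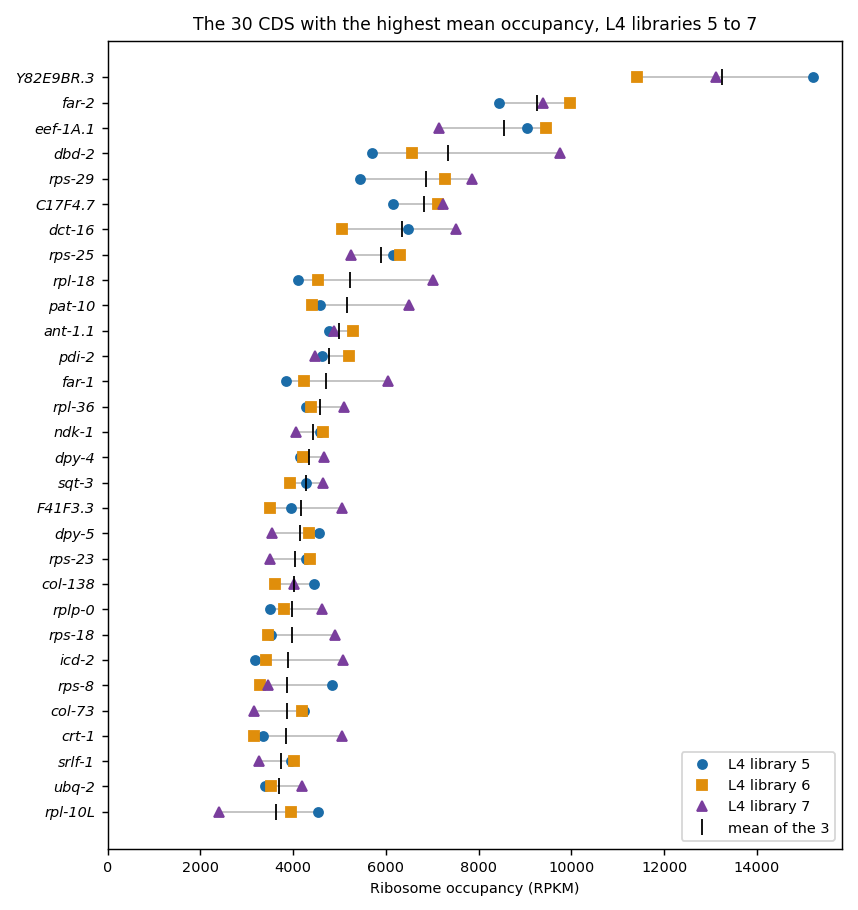
Occupancy in RPKM (x axis) of the 30 CDS with the highest mean over L4 libraries 5 to 7, one row per CDS; coloured symbols are the libraries, black ticks the means and grey lines the range. Y82E9BR.3 stands apart at 11410.4 to 15202 RPKM, while neighbours in the lower rows have overlapping ranges.

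For 7 of the 30 leaders the library left out, library 8, held under 60 RPKM. They were dbd-2, F41F3.3 and the collagens dpy-4, sqt-3, dpy-5, col-138 and col-73. dbd-2, at 7336 ± 2140 RPKM in libraries 5 to 7, had 32.1 RPKM in library 8 and 9.14 to 12.8 RPKM in the young adults. F41F3.3, at 4161 ± 802 RPKM, had 56.6 RPKM in library 8 and 4.00 to 9.90 RPKM in the young adults. Y82E9BR.3 was high in both stages, with 8548 RPKM in library 8 and 4917 to 9753 RPKM in the young adults. These CDS were picked for their level in libraries 5 to 7, and the values of the other libraries are given as a description.

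Translation was the largest use of the budget. The 163 genes of the translation machinery (cytosolic ribosomal proteins, elongation and initiation factors, factors that sit at the ribosome or the nascent chain, and aminoacyl-tRNA synthetases) held 21.7%, 21.7% and 21.3% of the summed RPKM, a sum of densities, and 14.8% of the reads. Cytosolic ribosomal proteins made up most of it. Their 83 genes, 0.405% of all CDS, held 18.1%, 18.1% and 17.8% (18.0% ± 0.197), and 10.2% of the reads. The large subunit took 10.5% ± 0.0309 with 51 genes and the small subunit 7.53% ± 0.228 with 32 genes. With library 8 included, the share of ribosomal proteins was 20.6%.

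Most ribosomal protein genes lay within a narrow range. Of the 83, 71 averaged between 1000 and 4000 RPKM, 5 were above and 7 below, and the median gene had 2297 RPKM (quartiles 1607 and 2898). All 32 small-subunit genes exceeded 1000 RPKM, from 1236 RPKM up to the 6856 RPKM of rps-29. The 4 leading genes of the small subunit were rps-29, rps-25 (5899 ± 574 RPKM), rps-23 (4047 ± 475 RPKM) and rps-18 (3964 ± 819 RPKM). On the large subunit rpl-18 led with 4098, 4543 and 7022 RPKM, followed by rpl-36 (4584 ± 453 RPKM), the stalk protein gene rplp-0 (3978 ± 576 RPKM) and ubq-2, which encodes ubiquitin fused to a ribosomal protein (3699.9 ± 423 RPKM).

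The 7 ribosomal genes under 1000 RPKM were all of the large subunit, and they are named here after their values were seen. rpl-42 had 9.40, 12.1 and 10.1 RPKM, rpl-37.2 had 84.8, 217 and 29.6 RPKM, rpl-37.1 had 231, 190 and 139 RPKM, and rpl-23A.1 had 242, 251 and 239 RPKM. The others, rpl-8, rpl-11.2 and rpl-28, averaged 800.2, 922 and 947 RPKM. Some of these are numbered copies of one protein, and the counting of reads that fit several copies is not stated. Without the numbered copies the share of ribosomal proteins was 17.2%.

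Other parts of the translation machinery took far less. The 8 elongation factor genes held 1.69% ± 0.146, of which eef-1A.1 alone was 46.8%. eef-2, the translocation factor, had 2218, 2167 and 1928 RPKM, and eef-1B.1, part of the exchange factor that recharges eEF1A, had 1696, 1639 and 1336 RPKM. The nascent-chain and ribosome-associated factors held 1.01% ± 0.0960 with 6 genes, led by the nascent polypeptide-associated complex genes icd-2 (3176, 3407 and 5079 RPKM) and icd-1 (2846, 2420.1 and 2294 RPKM), then the ribosome-bound scaffold rack-1 (2169.8 ± 215 RPKM). The 33 initiation factor genes held 0.643% ± 0.00293, led by inf-1, the eIF4A helicase, with 815, 824 and 781 RPKM. The 33 aminoacyl-tRNA synthetase genes held 0.248% ± 0.00284, and the highest of them, sars-1 for seryl-tRNA, reached 217 ± 7.48 RPKM. Elongation factors therefore stood near the ribosomal proteins in occupancy, with a median member at 1546 RPKM, whereas the median initiation factor had 182 RPKM and the median synthetase 76.3 RPKM. The 70 mitochondrial ribosomal protein genes held 0.659% ± 0.0550, with a median member at 92.0 RPKM.

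Cuticle synthesis was the second large block by RPKM. Collagens of the cuticle held 7.46%, 6.90% and 7.37% of the summed RPKM (7.24% ± 0.304), with 178 genes. Together with the enzymes that modify and fold collagen and the other cuticle, apical matrix and molting genes, 384 genes held 9.25% ± 0.291. The 158 numbered collagens (col genes) took 4.52% ± 0.232, and the 20 collagens named for furrow, body-shape or blister phenotypes took 2.84%, 2.65% and 2.70% in libraries 5, 6 and 7.

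The collagen groups differed in how they were occupied. Among the furrow, body-shape and blister collagens 9 of 20 exceeded 1000 RPKM and the median gene had 764 RPKM. dpy-4 had 4151, 4222 and 4673 RPKM, sqt-3 had 4267, 3926 and 4638 RPKM, dpy-5 had 4548, 4335 and 3546 RPKM, and dpy-13 had 3653, 3713 and 3242 RPKM. All 4 are genes whose mutants have short or misshapen bodies, and together they held 55.4% of that group. Of the numbered collagens 16 of 158 exceeded 1000 RPKM, 134 exceeded 1 RPKM, and the median gene had 32.6 RPKM. col-138 led them with 4446, 3601 and 4015 RPKM, then col-73 (4236, 4184 and 3154 RPKM), col-38 (3776, 3479.9 and 2982 RPKM) and col-77 (3179, 3252 and 2923 RPKM). The occupancy of numbered collagens thus lay on a small number of genes, while most of the family was at a low level.

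Enzymes and matrix proteins that work with the collagens followed. The 16 genes for collagen modification and ER folding held 1.16% ± 0.0436, led by pdi-2. The ER chaperone calreticulin, crt-1, had 3354, 3151 and 5054 RPKM, and the protein disulfide isomerases pdi-3 and pdi-1 averaged 1528 ± 183 and 833 ± 108 RPKM. The other cuticle, apical matrix and molting genes were 190 and held 0.842% ± 0.00514, led by the cuticlin gene cut-2 (1581, 1308 and 1107 RPKM), then lpr-3 (699, 755 and 1054 RPKM), a lipocalin of the apical matrix, and noah-1 (666, 724 and 536 RPKM), a zona pellucida domain protein of the same layer. The 59 hedgehog-related genes, a nematode family active in the epidermis, held 0.499% ± 0.0325, led by grl-16 at 1027 ± 255 RPKM. For secretion, the 26 ER translocation and glycosylation genes held 1.16% ± 0.0466, led by the translocon subunit gene sec-61.B (2141, 1987 and 2766 RPKM).

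Energy metabolism was the third block by RPKM. The respiratory chain, ATP synthase and mitochondrial carrier and import genes encoded in the nucleus, 106 listed by symbol, held 5.46%, 5.61% and 5.34% (5.47% ± 0.137). The 63 respiratory chain genes took 3.12% ± 0.0398, and the lowest of them averaged 21.3 RPKM. The 4 highest were subunits of cytochrome c oxidase: cox-7C at 2701 ± 225 RPKM, cox-5A at 2473 ± 187 RPKM, cox-6B at 2444 ± 286 RPKM and cox-5B at 2295 ± 37.7 RPKM. The 12 genes assigned to ATP synthase by symbol took 1.40% ± 0.0728. Genes known by a sequence name alone could not enter these 12. The share may thus be too low, and a more occupied gene of the complex may lie outside them. Among these 12 the highest were the catalytic and structural subunits of its head, atp-2 (2886, 3140 and 2833 RPKM) and atp-1 (2841, 2708 and 2410 RPKM). Of the carriers, ant-1.1 alone held 48.6% of its group. Glycolysis and the TCA cycle held 1.47% ± 0.109 with 45 genes, led by the aldolase aldo-2 (1576, 1498 and 1139 RPKM), the enolase enol-1 (1453, 1525 and 1154 RPKM) and the malate dehydrogenase mdh-2 (1366, 1421 and 1328 RPKM). Chaperones of the heat shock families, which fold cytosolic, ER and mitochondrial proteins, held 1.36% ± 0.00986 with 63 genes, and hsp-1, the constitutive cytosolic Hsp70, led them with 2864, 2724 and 2780.2 RPKM.

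Muscle, gut and lipid genes formed a middle layer. The 35 genes of the muscle contractile apparatus held 2.17%, 2.12% and 2.41% in libraries 5, 6 and 7 (2.23% ± 0.155). pat-10 had 4584, 4399 and 6507 RPKM, the tropomyosin gene lev-11 had 2348, 2287 and 3599 RPKM, the myosin light chain gene mlc-3 had 2393, 2191 and 2116 RPKM, and the calponin gene cpn-3 had 2267, 2368 and 1484 RPKM. The thin-filament genes pat-10 and lev-11 were highest in library 7 while cpn-3 was lowest there, so members of this family did not move together. The 119 lipid-binding and fatty acid genes held 2.56% ± 0.0998, and far-2 alone was 33.6% of them. lbp-6, an intracellular fatty acid binding protein, had 1779, 1805 and 1784 RPKM. The 88 lysosomal and digestive protease and saposin genes held 2.13% ± 0.105, led by the intestinal aspartyl protease asp-1 (3164, 3610.0 and 3467 RPKM) and the cathepsin L gene cpl-1 (1961, 1911 and 1753 RPKM). The vacuolar ATPase, the proton pump of acidic compartments, held 1.04% ± 0.0770 with 21 genes, led by vha-2 (2012 ± 99.3 RPKM).

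**Figure D3:**
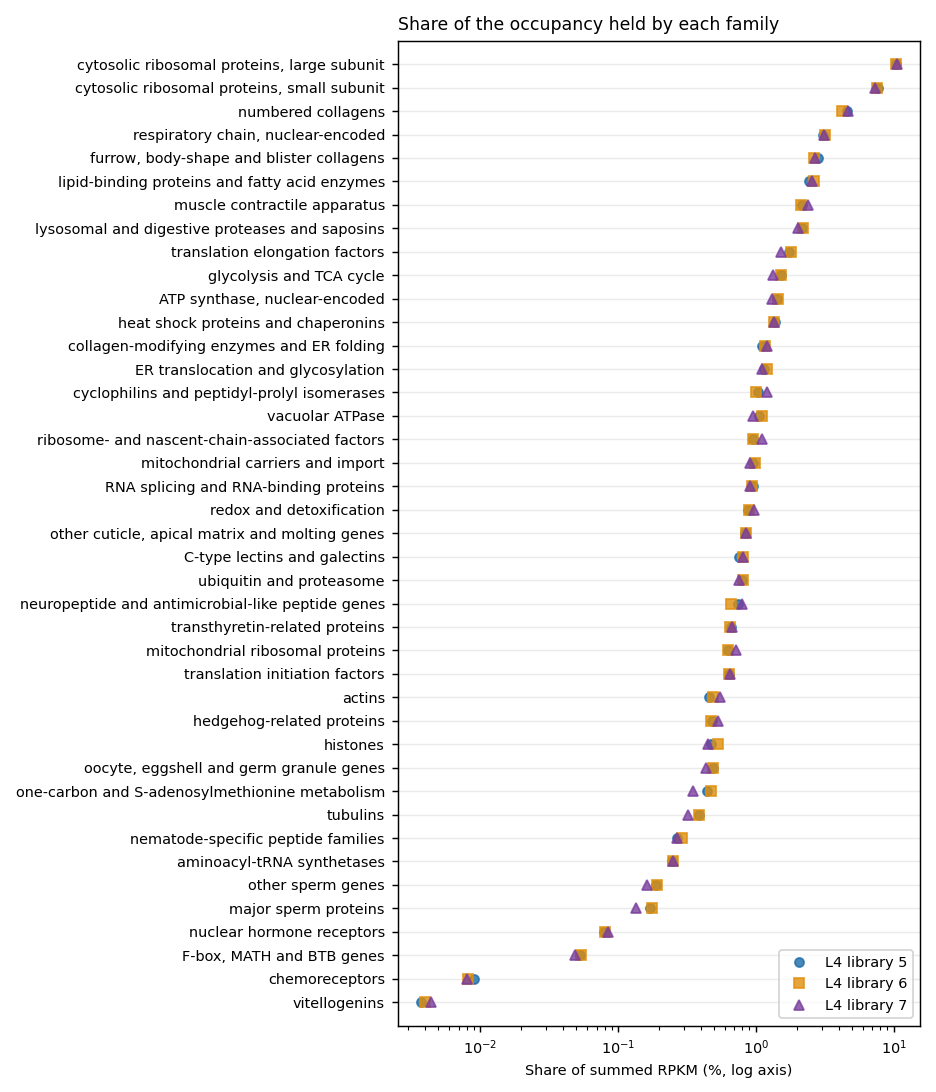
Share of summed RPKM (x axis, %, log scale) of the 41 gene families in L4 libraries 5, 6 and 7, ordered by the mean share from the large ribosomal subunit at the top to the vitellogenins at the bottom. The symbols of the 3 libraries nearly coincide for most families and no family changes its place by more than 3.

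Cytoskeletal and chromatin genes were smaller. The 5 actin genes held 0.500% ± 0.0498, with act-4 at 2586, 2837 and 2867 RPKM and the intestinal actin gene act-5 at 1399, 1467 and 2503 RPKM. Actin genes are near-identical in sequence, so their single values are uncertain. The 16 tubulin genes held 0.364% ± 0.0386, and the 79 histone genes 0.485% ± 0.0423, of which 52 had a value above 0. The cyclophilins and related prolyl isomerases held 1.08% ± 0.112, with cyn-7 at 2941, 3114 and 4563 RPKM.

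The lists of sperm, oocyte, germ granule and yolk genes took little of the L4 budget. The 34 genes of the major sperm protein list, which is wider than the msp genes, held 0.161% ± 0.0229, and the other sperm genes 0.180% ± 0.0165. Of the 34 listed genes 29 averaged at least 1 RPKM, and the highest, msd-4, had 247, 246 and 218 RPKM. Among the 30 with an msp symbol msp-50 was highest, with 157, 190 and 110 RPKM. Many of these genes are near-identical, so their single values are uncertain. The oocyte, eggshell and germ granule genes held 0.473% ± 0.0343, led by the Y-box RNA-binding protein gene cey-4 (615, 565 and 723 RPKM) and its paralog cey-2 (631, 661 and 484 RPKM). The 6 oocyte and eggshell markers summed to 10.1, 10.4 and 8.45 RPKM. In library 8 they summed to 2724 RPKM, and in the young adults to between 2907 and 3462 RPKM. The germ-line markers glh-1, pgl-1 and gld-1, of the same list, stood higher in libraries 5 to 7, at a sum of 603, 587 and 636 RPKM. For these the sum was 673 RPKM in library 8 and 796 to 918 RPKM in the young adults. Yolk proteins came last of all 41 families at 0.00405%, with vit-6 at 21.5, 22.8 and 25.2 RPKM.

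Gene number and budget did not go together. The 1335 chemoreceptor genes, 6.51% of all CDS, held 0.00845% of the summed RPKM, and 13 of them averaged at least 1 RPKM. The 458 F-box, MATH and BTB genes held 0.0520%, and the 278 nuclear hormone receptor genes 0.0815%. Among the receptors nhr-49, a regulator of fat metabolism, was highest with 44.6, 47.4 and 88.6 RPKM. Genes in none of the 41 lists numbered 16035 and held 41.7% ± 0.242. Of these 10567 averaged at least 1 RPKM and 37 at least 1000 RPKM, so this part of the budget was made of many CDS at low or middle levels. The listed families together held 58.3%. Unlisted genes known by a sequence name alone held 17.5% over 9092 CDS, and 14 of them stood among the 200 leading CDS. Lists were drawn up by symbol, so a family share can be too low where a member has no symbol.

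**Figure D4:**
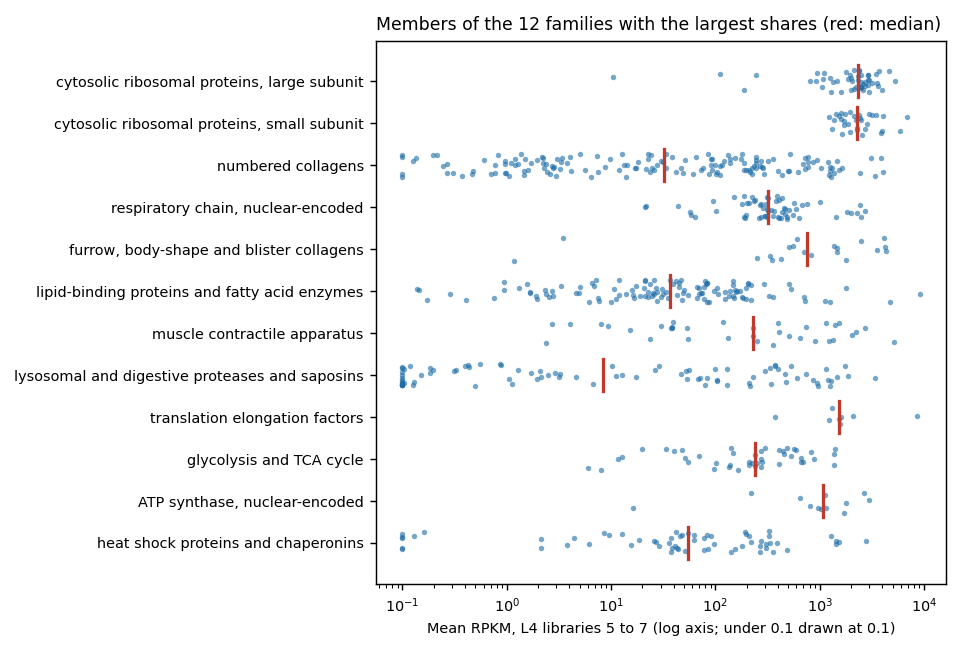
Mean RPKM over L4 libraries 5 to 7 (x axis, log scale) of every member of the 12 families with the largest shares, one point per CDS, with the median in red and values under 0.1 drawn at 0.1. Ribosomal proteins cluster near their medians, while numbered collagens and digestive proteases spread from 0.1 to over 3000 RPKM.

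Few families moved far in the ranking, while the lists of leading CDS were shared in part. These are unlike measures, since a family sums many members and family shares lie far apart, so their steadiness is not compared. Of the 41 families, 17 held the same place in libraries 5, 6 and 7, 33 stayed within 2 places and none moved by more than 3. The first 4 places, large-subunit and small-subunit ribosomal proteins, numbered collagens and the respiratory chain, were the same in every library. Of the 10 leading families, 9 were among the first 10 of all 3 libraries. For the CDS, the 30 leaders of each library had 18 in common, the 50 leaders 37 (74.0%) and the 200 leaders 182 (91.0%).

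Libraries 5 and 6 resembled each other more than either resembled library 7. Over the 12698 CDS with a mean of at least 1 RPKM, the SD of the difference in log2(RPKM + 1) was 0.21 between libraries 5 and 6, 0.46 between 5 and 7 and 0.46 between 6 and 7. Spearman's rho across the same CDS, which are no independent replicates and share the library's normalization, was 0.993, 0.972 and 0.971 for these pairs. Among the 200 leading CDS library 7 was the farthest from the mean for 133, library 5 for 39 and library 6 for 28. None of the 200 differed by over 1.5-fold between libraries 5 and 6, whereas 17.0% did between 5 and 7 and 15.0% between 6 and 7. Library 7 was also the shallowest, and the part of depth or of the gel slice in this was not tested.

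**Figure D5:**
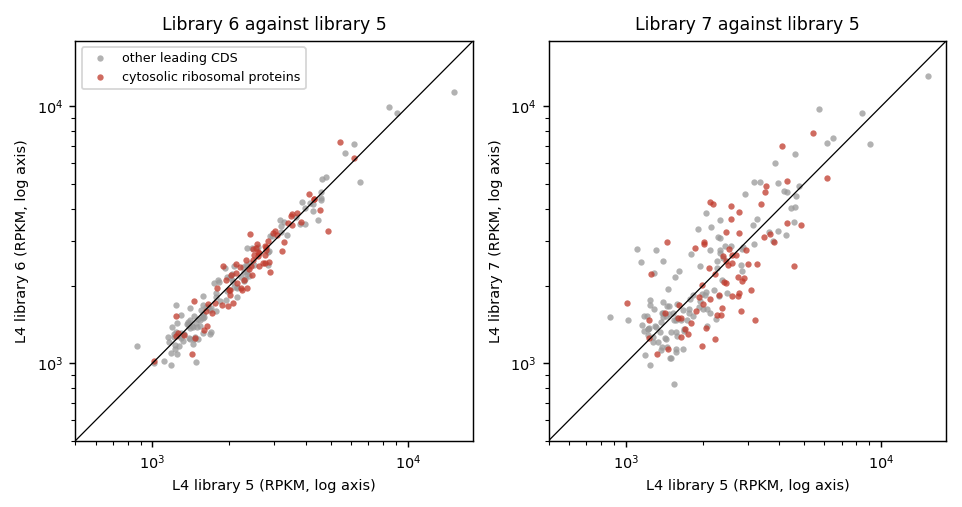
RPKM of the 200 leading CDS in L4 library 6 (left) and library 7 (right) against library 5, both axes log-scaled, with the line of equal values; ribosomal proteins are red and the other leading CDS grey. Points hug the line on the left (Spearman's rho 0.962, n = 200) and scatter around it on the right (0.761, n = 200).

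Counting error was far smaller than this spread for the leaders. The median CV of the 200 leading CDS over the 3 libraries was 12.4%, against 0.844% from read counts alone, and 198 of the 200 varied by more than their own counting error. The CV was under 10% for 80 of them and over 30% for 16. At low levels the gap closed: CDS between 1 and 10 RPKM had a median CV of 17.4% and a counting CV of 15.6%.

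Library 7 lay outside the range of libraries 5 and 6, by any amount, about as often for ribosomal protein genes as for all CDS. In library 7, 27 of the 83 ribosomal protein genes (32.5%) were above both other libraries, 45 (54.2%) were below both and 11 lay between. Over all 6881 CDS with a mean of at least 10 RPKM, 38.8% were above both and 49.8% below both. rpl-21 had 2131, 2435 and 4252 RPKM, rpl-7A had 1450.2, 1747 and 2954 RPKM, and rpl-31 had 2194, 2374 and 4183 RPKM, each highest in library 7. rpl-32 went the other way with 3203, 2725 and 1475 RPKM. Spearman's rho among the 83 genes was 0.958 between libraries 5 and 6 and 0.751 between 5 and 7. The share of the family had a CV of 1.10%.

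Of the 200 leading CDS hmg-1.1, a high mobility group protein gene, varied most, with 1108, 1018 and 2788 RPKM (CV 60.9%). ost-1, which encodes the basement membrane protein SPARC, had 1319, 1301 and 2753 RPKM, and col-125 had 1153, 1265 and 2481 RPKM. Y22D7AL.10 had 2056, 2221 and 3833 RPKM. In each of these, and in rpl-21, rpl-7A and rpl-31, libraries 5 and 6 lay together and library 7 was high, while rpl-32 was low there. The steadiest were hsp-6, the mitochondrial Hsp70, with 1277, 1274 and 1271 RPKM (CV 0.237%), lbp-6 (CV 0.756%), cox-5B (CV 1.64%), par-5, a 14-3-3 protein gene (CV 2.45%), and hsp-1 (CV 2.51%). The counting CV of hsp-6 was 0.610%, above its CV over libraries.

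The leading CDS were short. The median feature length recovered from the values was 583 nucleotides for the 50 leading CDS, 606 for the 200 leading CDS and 1087 for the CDS with at least 1 RPKM. Of the 50 leaders, 92.0% were under 1000 nucleotides. The 200 leaders by reads, a measure not divided by length, had a median of 935.5 nucleotides. Counted in reads, the order changed. eef-1A.1 came first with 1.22% of the reads, then pdi-2 with 0.721% and unc-54, the myosin heavy chain of body wall muscle, with 0.685%. unc-54 had 1144, 1138 and 1176 RPKM and stood at place 202 by RPKM, but its feature spans 5920 nucleotides. eef-2 and hsp-1 followed with 0.546% each, then far-2, Y82E9BR.3, atp-2, ant-1.1 and lev-11.

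By reads, ribosomal proteins held 10.2% ± 0.0718 instead of 18.0%, and collagens 7.53% ± 0.372 instead of 7.24%. Heat shock proteins and chaperonins held 2.52% by reads against 1.36% by RPKM, and aminoacyl-tRNA synthetases 0.553% against 0.248%. The respiratory chain fell to 1.88% by reads from 3.12% by RPKM. Glycolysis and the TCA cycle held 2.22% by reads against 1.47%, so the order of families depends on the measure. Collagens stood closer to ribosomal proteins by reads than by RPKM. The 2 lists of 200 leaders, by RPKM and by reads, had 145 CDS in common. A recovered length can be a whole fraction of the real one. For crt-1 the length found was 608 nucleotides, and at 1216 nucleotides its place by reads would be 9 instead of 47. The 10 leaders by reads named above therefore hold only for the lengths as recovered, and at 1216 nucleotides crt-1 would be among them.

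The budget was not laid out evenly over the chromosomes. Chromosome III held 21.01% ± 0.247 of the summed RPKM with 12.9% of all CDS, and chromosome I 19.7% ± 0.278 with 13.9%. Chromosome V, with 24.7% of all CDS, held 15.0% ± 0.266, and the X chromosome, with 13.4%, held 9.46% ± 0.0913. Among placed CDS with a mean of at least 1 RPKM the gaps were smaller for most of them. There chromosome III had 16.2% of the CDS, I had 17.0%, V had 18.8% and X had 13.6%. Ribosomal protein genes lay mostly on chromosomes I (24), III (20) and IV (18), with 2 on X. With ribosomal proteins left out, X held 11.4%, chromosome III held 19.7%, chromosome I held 18.1% and chromosome V held 16.6%.

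The L4 budget was set beside that of young adults to see where it differed. In this test all 4 libraries labelled L4 entered as labelled, library 8 included, against the 4 young-adult libraries, with an exact two-sided permutation test per family whose smallest possible p is 0.0286. Of 41 families 20 (48.8%) had an unadjusted exact p under 0.05, and none (0.0%) passed after Benjamini-Hochberg adjustment over the 41, where the lowest adjusted p was 0.0586. No family is therefore called different. At this smallest possible p a family can pass the adjustment only if many others reach it too, so the lack of calls does not show equal shares. The permutation also treats libraries as independent. No label says that the L4 libraries came from separate cultures, and the young-adult libraries differed in purification and library protocol. As a description, libraries 5 to 7 lay above all young-adult libraries in 24 families (58.5%), below all of them in 12 (29.3%) and overlapped in 5. Library 8 was left out for these same values, so these counts support no difference.

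Ribosomal proteins held 18.1%, 18.1% and 17.8% in L4 libraries 5, 6 and 7 and 28.5% in library 8, against 30.5%, 26.5%, 30.1% and 26.4% in the young-adult libraries (exact permutation p = 0.0857, not adjusted, 4 against 4). Libraries 5 to 7 lay below the young adults, and library 8 lay among them. Furrow, body-shape and blister collagens held 2.84%, 2.65% and 2.70% in L4 libraries 5, 6 and 7 and 0.0157% in library 8, against at most 0.00698% in the young adults. Numbered collagens overlapped, at 4.62%, 4.25% and 4.67% in L4 libraries 5, 6 and 7, 5.04% in library 8 and 4.21% to 6.94% in the young adults. Muscle genes held 2.17%, 2.12% and 2.41% in L4 libraries 5, 6 and 7 and 1.41% in library 8, against 0.966% to 1.13% in the young adults. The lipid-binding group held 2.45%, 2.65% and 2.58% in L4 libraries 5, 6 and 7 and 2.44% in library 8, against 1.93% to 2.26% in the young adults. The L4 and young-adult libraries were made in separate experiments of the series, so stage and experiment cannot be told apart.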

How the data were processed

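Ribosome-protected fragments were sequenced from whole N2 worms, per the labels, and the values analysed are RPKM per CDS as deposited by the authors. Per the submitters' processing notes STAR 2.4, Bowtie2 2.2.4 and bcl2fastq 1.8.4 were used; their roles are not stated. The genome build and the counting of reads with several matches are not given in the sources used here. Samples were grouped by the age label, and columns by number.

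With Python 3.11.15, numpy 2.4.6, pandas 2.3.3 and scipy 1.17.1, the mean RPKM over libraries 5 to 7 was taken per CDS. Shares are percentages of the summed RPKM, which was 1078408, 1073414 and 1085273 in libraries 5, 6 and 7. Read totals, feature lengths and whole read counts were worked back from the deposited values (tolerance 0.0001) for all 19649 CDS with a value, and 856 CDS were at 0 in all 8 libraries. Between 99.6% and 99.7% of the reads of libraries 5 to 7 lay in the table. The length search and the permutation test were tested on simulated data. Symbols came from a RefSeq table, which 20051 sequence names matched and 454 did not. Families were assigned by symbol. Spellings missed or misplaced at first were corrected after the names were seen, and the first version is an alternative.

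Named CDS were the 30 with the highest mean, the 4 highest of each family, the 10 with most reads, and among the 200 leaders the 8 with the largest and the 5 with the smallest CV, beside the stage markers; others are named as such. Members, families and tests were chosen with earlier results of these data known. Shares have no test within the L4 libraries. The test against young adults was an exact two-sided permutation test with Benjamini-Hochberg adjustment over 41 families at 0.05. Alternatives were shares of reads, the median, equal scaling, leaving out each library, all 4 libraries labelled L4, a filter at 1 RPKM, leaving out the 10 leaders or numbered paralogs, and other pseudocounts. Sequences were not used here.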

Additional observations from a re-analysis of the deposited data

Results flagged for a closer look

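Among the 4 libraries labelled L4, library 8 stood so far from the other 3 that its gap, divided by the range of the group, passed Dixon's 95% critical value for 14 of 43 family shares. Chance alone flags about 1 in 20 such groups, but library 8 had been set apart for these same values and the shares are not independent, so the number of flags is a description and no support. No library of the young adults was flagged, and neither was library 5, 6 or 7. In library 8 the large-subunit ribosomal proteins held 16.2%, the small-subunit ones 12.3% and all cytosolic ribosomal proteins 28.5%, each above libraries 5 to 7. Aminoacyl-tRNA synthetases at 0.327%, heat shock proteins and chaperonins at 1.58%, ubiquitin and proteasome genes at 1.06% and F-box, MATH and BTB genes at 0.101% were also above. Vitellogenins at 1.58% and oocyte, eggshell and germ granule genes at 1.70% were far above. Below libraries 5 to 7 were the furrow, body-shape and blister collagens at 0.0157%, the other cuticle, apical matrix and molting genes at 0.164%, the hedgehog-related proteins at 0.110%, the collagen-modifying and ER folding genes at 0.407% and the respiratory chain at 2.45%. The cause was not tested.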

How the results depend on the processing

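The share of ribosomal proteins, 18.0% as reported, was 10.2% as a share of reads, 9.65% of reads with lengths doubled where their remainder by 3 is 2, 20.6% with all 4 libraries labelled L4, 17.5% without the 10 leading CDS, 17.2% without numbered paralogs and 16.2% with the family patterns as first written. The doubled lengths and the first patterns were added as alternatives after seeing the data. Recovered reads already made up 99.6% to 99.7% of the totals of libraries 5 to 7. These lengths therefore cannot all be doubled at once, and the doubled setting is an extreme. The collagen share of 7.24% was 6.70% with all 4 libraries labelled L4 and 7.78% without the 10 leading CDS. The 50 leading CDS, at 20.5%, held 18.2% of reads, 18.6% of reads with doubled lengths and 17.3% without the 10 leading CDS. Leaving out library 5, 6 or 7 gave 17.9% to 18.1% for ribosomal proteins, 7.13% to 7.42% for collagens, 20.2% to 20.9% for the 50 leaders and 241 to 248 CDS for 50% of the sum. Over the 41 families, the share of reads moved 16 by over 1.5 times, in either direction, and all 4 libraries labelled L4 moved 2, the vitellogenins to 0.397% and the oocyte genes to 0.780%. The difference in ribosomal protein share, L4 minus young adult, was -7.77 percentage points with an exact permutation p of 0.0857, and -10.4 points for libraries 5 to 7 alone. None of the 41 families passed with adjustment and 20 without; without L4 library 8, and so for libraries 5 to 7 alone, 33 passed both ways, and without any other single library 0 passed with adjustment and 6 to 18 without. Library 8 was left out because its values differ from those of libraries 5 to 7, so the counts and the p without it follow from that choice and are no test. Leaving out each library gave -10.4 to -6.82 points. For collagens the difference was 1.24 points (p = 0.200, exact permutation), and 0.825 to 1.78 points without each library. With pseudocounts of 0.1 and 5 the SD of log2 differences between libraries 5 and 6 was 0.27 and 0.14, and library 7 stayed the more distant. No paired analysis was possible because the L4 and young-adult columns share no replicate numbers that tie one library to another.

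Precision is limited by 3 libraries whose separate origin is not given, by 4999364 reads in library 7, by unstated handling of reads that fit near-identical genes, and by lengths known only up to a whole factor. Of the recovered lengths 51.5% left a remainder of 1 when divided by 3, as did 96.0% of those of the 200 leading CDS.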
